A study of Caenorhabditis elegans with 2 samples.

Results

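The Hox genes of Caenorhabditis elegans and their TALE cofactors were examined for binding sites of LIN-14, a nuclear protein that sets the timing of events in the first larval stage. The 10 genes were chosen by name: the Hox genes ceh-13, lin-39, mab-5, egl-5, php-3 and nob-1, and the TALE homeobox genes ceh-20, ceh-40, ceh-60 and unc-62, out of 19973 protein-coding genes. Binding was mapped by ChIP-seq (chromatin immunoprecipitation followed by sequencing) in 2 biological replicates of 1 group, with no second condition, and the deposited values are lists of peaks. The worms were strain OP768, an unc-119(tm4063) mutant that carries a transgene with lin-14 fused to TY1, EGFP and 3xFLAG tags together with unc-119(+). LIN-14 was precipitated through the EGFP tag from whole L1 larvae of both sexes at 6 hours, after synchronisation by bleaching and starvation, and the labels name no change of the native lin-14 gene. In whole larvae, binding in few cells and weak binding in many cells cannot be told apart. A peak was counted for a gene when its summit lay from 10 kb upstream of the gene to 1 kb downstream, in the list that passed the authors' irreproducible discovery rate (IDR) threshold. This gave 32 distinct peaks of 11507, at 8 of the 10 genes.

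Hox proteins are homeodomain transcription factors that give cells their identity along the body axis. In C. elegans, ceh-13 is the anterior (labial-type) gene, lin-39 acts in the mid-body and in the vulval precursor cells, mab-5 acts in posterior epidermis and in migrating neuroblasts, and egl-5, php-3 and nob-1 are posterior genes related to Abdominal-B. Hox proteins bind DNA with TALE homeodomain partners. CEH-20, CEH-40 and CEH-60 belong to the Pbx (Extradenticle) type of these partners and UNC-62 to the Meis (Homothorax) type. LIN-14 itself is abundant in L1 larvae and is later repressed through the microRNA lin-4.

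The sequences below are those under the strongest peak of each member whose score was above the median of the list, with the second ceh-20 peak added because the stronger one lies at other genes. Each covers 100 bp to either side of the summit on the plus strand of ce11, trimmed where it met an annotated untranslated region. Of unc-62, whose summit lies in such a region, a site of 30 bases is shown that does not reach the summit. It holds 1 of the 2 GAGAGA words in the window around that summit. Distances given with the sequences are those of the summits. Capitals mark the word GAGAGA, the word GAGACG or the word GACGCA on either strand, chosen because they are concentrated at LIN-14 summits over the whole list. The word GAGACG can overlap either of the others.
ceh-13, 6505 bp upstream, chrIII:7549055-7549255: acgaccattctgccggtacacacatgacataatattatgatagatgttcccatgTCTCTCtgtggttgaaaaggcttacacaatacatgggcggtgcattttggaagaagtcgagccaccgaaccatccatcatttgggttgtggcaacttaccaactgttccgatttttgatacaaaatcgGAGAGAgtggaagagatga
lin-39, 1786 bp inside the gene, chrIII:7534806-7534946: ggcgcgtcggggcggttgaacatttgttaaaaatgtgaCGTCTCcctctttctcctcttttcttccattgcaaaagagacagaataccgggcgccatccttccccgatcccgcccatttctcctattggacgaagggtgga
mab-5, 7309 bp upstream, chrIII:7790663-7790863: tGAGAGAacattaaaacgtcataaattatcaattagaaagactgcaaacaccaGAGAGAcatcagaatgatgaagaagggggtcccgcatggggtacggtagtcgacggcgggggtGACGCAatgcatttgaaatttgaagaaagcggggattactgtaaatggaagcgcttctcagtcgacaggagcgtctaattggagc
ceh-20, 7787 bp upstream, chrIII:6971997-6972197: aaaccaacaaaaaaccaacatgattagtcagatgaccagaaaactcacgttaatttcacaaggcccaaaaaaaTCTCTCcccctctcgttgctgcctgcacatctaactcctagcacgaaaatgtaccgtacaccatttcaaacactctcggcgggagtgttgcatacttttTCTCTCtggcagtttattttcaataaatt
ceh-20, 789 bp upstream, chrIII:6978995-6979195: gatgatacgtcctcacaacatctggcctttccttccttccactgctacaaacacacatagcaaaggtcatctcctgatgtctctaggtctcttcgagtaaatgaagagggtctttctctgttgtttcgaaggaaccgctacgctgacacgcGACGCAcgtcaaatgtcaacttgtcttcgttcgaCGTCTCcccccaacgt
unc-62, 10551 bp inside the gene, chrV:4507957-4507986: gcaaagagattgGAGAGAgttggctggcag

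Peaks were ranked by the deposited score, a strength assigned by the authors' caller on a scale that is not stated. Scores in the IDR-thresholded list ran from 147.5 to 13287.5 with a median of 359. Replicate 1 held 25357 peaks, replicate 2 held 27170 and the list called on both together (the pooled list) 24683. Scores of the single replicates are on a lower scale, with medians of 205 in replicate 1 and 161 in replicate 2 at sites matched to the IDR-thresholded list. A site was matched when a summit lay within 100 bp. The files hold no read counts, so the depth behind a score is unknown.

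All 6 Hox genes had at least 1 LIN-14 peak, and the TALE genes were split, with peaks at ceh-20 and unc-62 and none at ceh-40 and ceh-60. The count for php-3 rests on peaks shared with nob-1, and all of these lie nearer to nob-1. Over all protein-coding genes 56.2% had a peak in a window of this kind. The Hox windows held 22 distinct peaks with a median score of 231, of which 6 were above the median of the list. The TALE windows held 10 peaks with a median of 505, of which 6 were above it. The strongest Hox peak, at lin-39, scored 911, below the strongest at unc-62 (2073) and in the ceh-20 window (2221). The latter peak lies at the promoters of rfc-4 and eef-1A.1, and the one assigned to ceh-20 by distance scored 1311. Peaks within a window share their chromatin and libraries, so these medians are descriptions and were not tested.

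**Figure D1:**
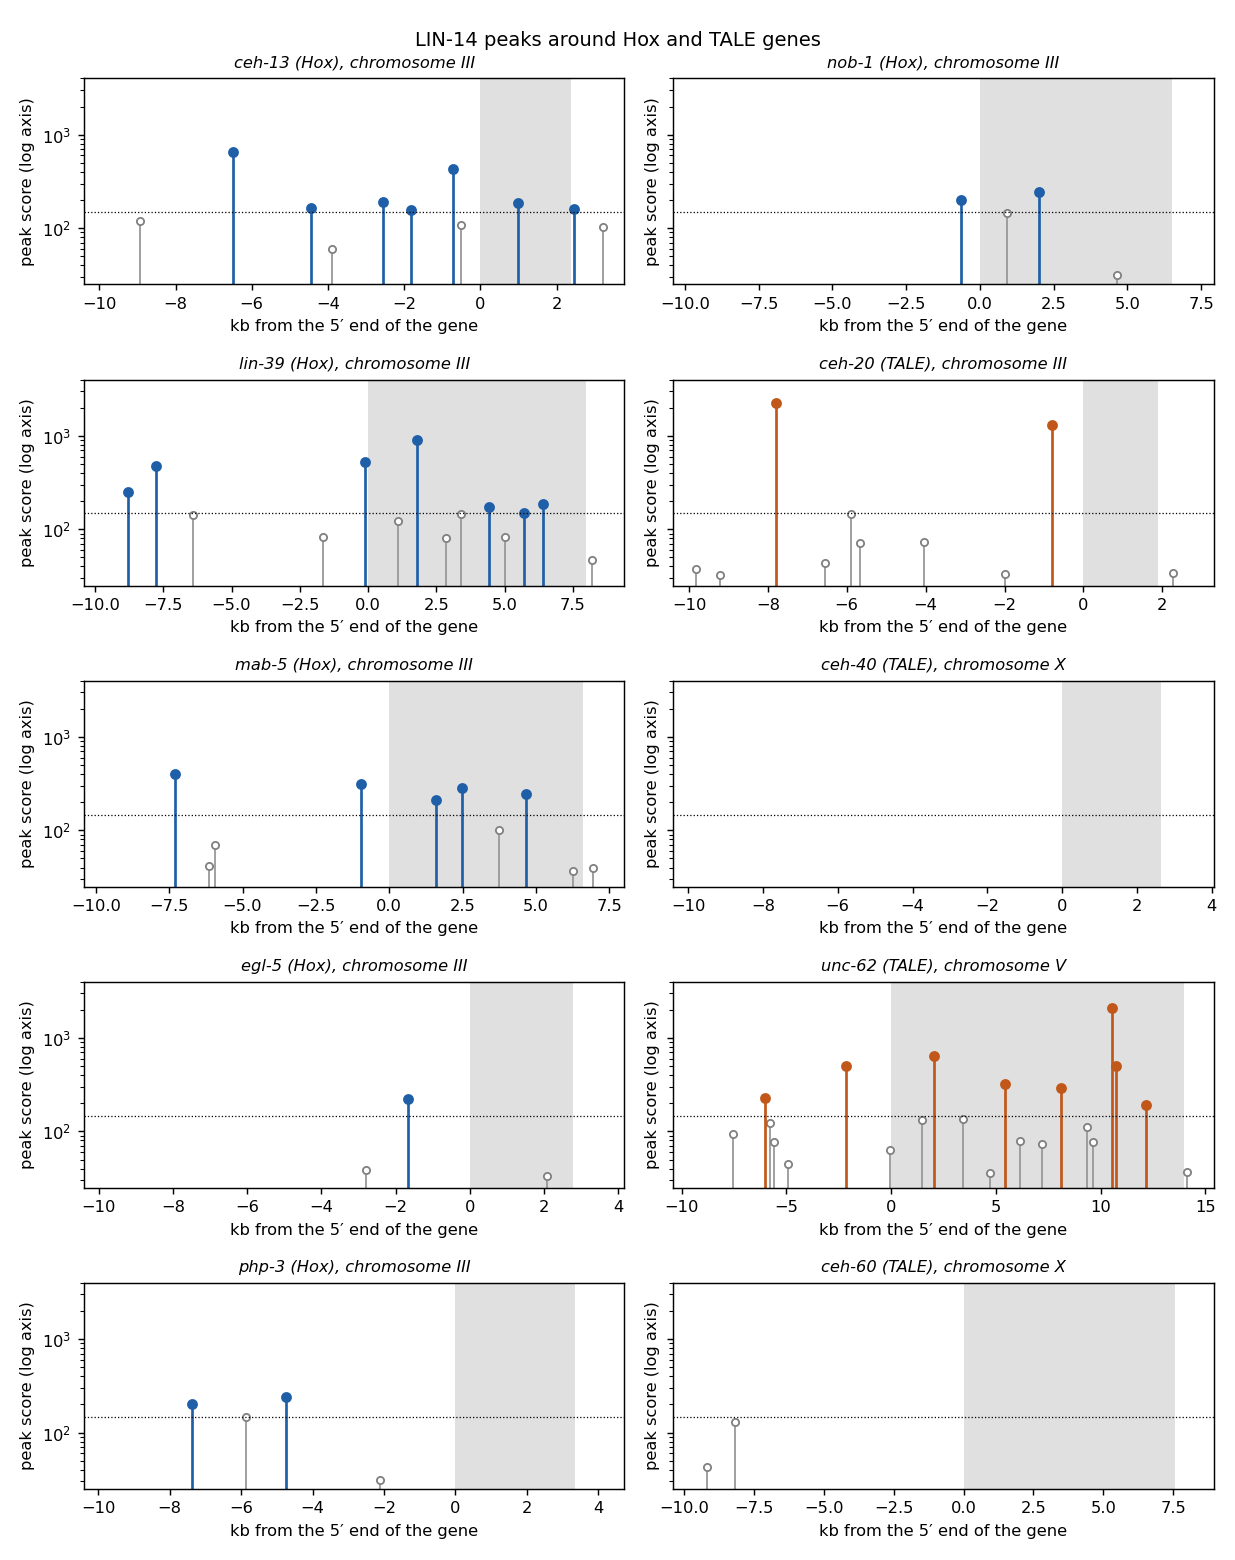
Scores of LIN-14 peaks (log axis) against the distance of their summits from the 5′ end of each gene in kb, with upstream to the left and the gene shaded. Filled points are IDR-thresholded peaks (blue at Hox genes, orange at TALE genes), open points are peaks of the pooled list that did not pass, and the dotted line is the lowest score that passed, 147.5. The 8 genes with filled points have 1 to 8 of them, and ceh-40 has no point of either kind.

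lin-39 and ceh-13, which lie next to each other in opposite orientation, had the densest peaks among the Hox genes. lin-39 (chromosome III, 7528641 to 7536632, minus strand) had 7 peaks. The strongest, with its summit at 7534846, scored 911, with 566 in replicate 1 and 365 in replicate 2. It lies in an intron of the long transcript and 41 bp upstream of the 5′ end of the short one. Rank 1790 of 11507 makes it the highest ranked Hox peak. The second, 128 bp upstream of the long transcript, scored 524 (replicates 336 and 186). Its summit also lies inside the annotated non-coding genes C07H6.12 and C07H6.16. Both annotated starts of lin-39 therefore had a peak within 200 bp.

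Farther upstream of lin-39, a peak 7766 bp away scored 479 (replicates 266 and 199) and one 8798 bp away scored 248 (replicates 153 and 99.0). Both lie beside non-coding genes in the sequence between lin-39 and ceh-13. The first is inside linc-57 (7543476 to 7545064), a long intergenic RNA gene, and the second is 275 bp upstream of the microRNA gene mir-231 (7545057 to 7545155). The lists cannot assign them to lin-39 or to these genes. The last 3 lin-39 peaks, in introns 4414 to 6416 bp inside the gene, were weak, with scores of 149 to 186. The summits at 7530918 and 7532218 also lie inside the annotated non-coding genes C07H6.14 and C07H6.18. The remaining intron peak, at 7530216, was higher in replicate 2 (102) than in replicate 1 (67.3), against the direction of most peaks.

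ceh-13 (chromosome III, 7555660 to 7558041, plus strand) also had 7 peaks, of which 5 lay upstream. The strongest scored 653 (replicates 357 and 296) at 6505 bp upstream, and its sequence above holds GAGAGA on both strands. The next, at 720 bp upstream, scored 429.9 (replicates 262 and 171). The other 5 scored 158 to 188, near the threshold. Among these, the one 4439 bp upstream was higher in replicate 2 (91.6 against 72.4) and the other 4 were higher in replicate 1.

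mab-5 had 5 peaks, 1 of them above the median score of the list, and egl-5 had a single one below it. mab-5 (chromosome III, 7776835 to 7783454, minus strand) had scores from 213 to 404. The strongest, 7309 bp upstream, had 199 in replicate 1 and 208 in replicate 2, and it lies nearer to the 5′ end of cyk-7 (4533 bp). A peak 956 bp upstream scored 311 (replicates 161 and 145), and 3 lay in introns, with 282, 245 and 213. At each of those 3 the replicate 1 score was the higher, for example 164 against 111 at the first. The one with 245 lies closer to the 5′ end of the neighbour bath-15 than to that of mab-5.

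egl-5 (chromosome III, 7814374 to 7817141, plus strand) had 1 peak, 1664 bp upstream, with a score of 221. Its values in the replicates were 66.1 and 149, a log2 ratio of replicate 1 to replicate 2 of -1.17. Over all matched peaks replicate 1 was higher by a median of 0.35 (SD 0.41), and only 0.746% of them lay farther from that median than this one. Among the 11507 highest scoring peaks of replicate 1 alone egl-5 had none, and in those of replicate 2 it had 1.

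php-3 and nob-1, a posterior pair in tandem on chromosome III (12074218 to 12077556 and 12077793 to 12084316, minus strand), shared the same 2 peaks. One lies in an intron of nob-1 with a score of 242 (replicates 167 and 82.0), and the other 628 bp upstream of nob-1 with 200.1 (replicates 117 and 79.9). Both belong to nob-1 by distance, and php-3 had no peak of its own. A further site, 907 bp inside nob-1, scored 145.9 in the pooled list and fell just short of the threshold, although it was found in replicate 1 (82.7) and replicate 2 (69.1).

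Peaks at the TALE gene ceh-20, the main Pbx-type partner of the Hox proteins, were few and strong. ceh-20 (chromosome III, 6979884 to 6981785, plus strand) had 2. The one 789 bp upstream scored 1311, rank 1013, with 708 in replicate 1 and 604 in replicate 2, and lies in the sequence between F31E3.2 and ceh-20. Its sequence above holds the word GACGCA and the word GAGACG. The one 7787 bp upstream scored 2221 (replicates 1222 and 1014), but it lies 156 bp from the 5′ end of rfc-4, within the promoter windows of rfc-4 and the divergent eef-1A.1. The microRNA gene mir-5549 is annotated beside that summit too. Only the nearer peak was assigned to ceh-20 by distance.

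unc-62, the Meis-type cofactor, had the most peaks of the 10 genes when each summit was counted. With overlapping peaks merged it was level with ceh-13 and lin-39. The gene (chromosome V, 4497461 to 4511449, plus strand) has 18 annotated transcripts with 15 different 5′ ends, and its window held 8 peaks, 6 of them inside the gene. The strongest scored 2073 (replicates 1073 and 995), rank 412, with its summit 10551 bp inside the gene in an exon that is 5′ untranslated in some transcripts. The same interval, 4507730 to 4508471, has a second summit 10752 bp inside the gene with a score of 503, where the replicates gave 132 and 269. Only 0.980% of all matched peaks had a ratio farther from the median of the list. A peak 2036 bp inside the gene lies 9 bp from an annotated 5′ end and scored 649 (replicates 331 and 344). Upstream of the gene, a peak 2146 bp away scored 507 (replicates 297 and 236) and one 6008 bp away scored 228. The latter is the only one of the 32 peaks without a summit within 100 bp in both replicates: it had 142 in replicate 1, and in replicate 2 only a peak that overlaps it with a summit farther off. Just upstream of the first annotated start, by 76 bp, there was only a pooled peak below the threshold, with a score of 62.9.

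ceh-40 and ceh-60, both X-linked and of the Pbx type, had no peak. Of X-linked protein-coding genes 74.7% had one in such a window. At ceh-40 (12318126 to 12320777, minus strand) no peak of any list fell in the window, in replicate 1, replicate 2 or the pooled list, and the nearest IDR-thresholded summit was 24219 bp from its 5′ end. At ceh-60 (6522596 to 6530146, minus strand), which acts with UNC-62 in the control of yolk genes in the adult intestine, the pooled list had 2 peaks below the threshold. The stronger, 8171 bp upstream, scored 128 with a −log10 q-value of 2.00, and it had a matching summit in replicate 2 (47.4). In replicate 1 a peak overlapped it (79.8) with a summit farther than 100 bp away. The absence of a peak means that none was called in these larvae at a depth that is unknown, not that LIN-14 does not bind there.

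The windows differ in length, so peaks were also counted per kb. ceh-13 had 0.523 peaks per kb, above 98.9% of protein-coding genes. lin-39 followed with 0.369 (above 95.2%), then unc-62 with 0.320 (above 92.3%) and mab-5 with 0.284 (above 89.7%). ceh-20, php-3 and nob-1 were at 0.155, 0.139 and 0.114. egl-5, at 0.0726, was level with the median gene at 0.0717. In all 8 members exceeded that median, as did 50% of protein-coding genes. The counts include weak peaks: of the 7 at ceh-13 and the 7 at lin-39, 2 and 3 were above the median score of the list.

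Density and strength ranked the genes differently. The strongest peak of unc-62 stood above 96.4% of the list. In the ceh-20 window the strongest, beside rfc-4, stood above 96.9%, and the peak nearest to ceh-20 itself above 91.2%, which places ceh-20 below unc-62. The strongest peaks of lin-39, ceh-13 and mab-5 stood above 84.4, 74.6 and 55.4% of the list, and those of nob-1 (shared with php-3) and egl-5 above 29.5 and 24.4%. In the 11507 highest peaks of single replicates, lin-39 ranged from 81.3 to 86.7%, ceh-13 from 73.7 to 75.2% and mab-5 from 48.2 to 61.4%, while nob-1 was at 39.3% in replicate 1 and 8.90% in replicate 2. The order of egl-5 and nob-1 therefore differed between the replicates.

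**Figure D2:**
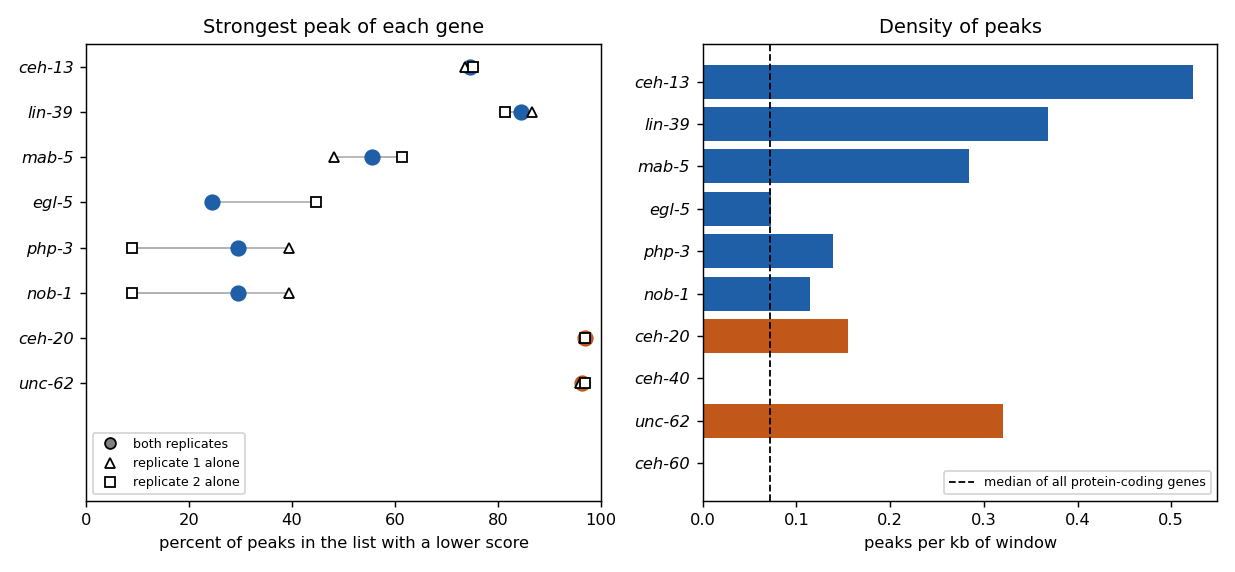
Left, the percent of peaks in a list with a lower score than the strongest peak of each gene, for the IDR-thresholded list (filled), replicate 1 alone (triangles) and replicate 2 alone (squares), each with 11507 peaks. Right, peaks per kb of window, with the median of protein-coding genes (0.0717) dashed. unc-62 lies above 95% in all 3 lists, as does ceh-20 through the peak beside rfc-4, and ceh-13 has the highest density.

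A narrower promoter window reached from 1000 bp before a transcript's start to 200 bp past it, and 6 of the 10 genes had a peak there, against 23.0% of protein-coding genes. These were lin-39 with 2 such peaks and ceh-13, mab-5, nob-1, ceh-20 and unc-62 with 1 each. The peaks of ceh-13, mab-5, nob-1 and ceh-20 lay 628 to 956 bp upstream. When the window was narrowed to 500 bp before and 100 bp past a start, lin-39 kept its 2 peaks and unc-62 its 1. These 2 genes of 10 are close to the 17.7% of protein-coding genes with a peak in that window. Of the 32 summits, 17 were intergenic with respect to protein-coding genes, 10 lay in introns and 5 in exons that are 5′ untranslated in at least 1 unc-62 transcript. The intergenic and intronic summits lay outside coding sequence and 3′ untranslated regions. Whether the 5 are coding in other unc-62 transcripts was not counted.

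Most of the weaker peaks at these genes had one fixed width, as did most of the weaker peaks of the whole list. In the deposited list 3747 peaks (32.6%) have a width of exactly 410 bp with the summit at the midpoint, and their median score is 199, against 517 for the rest. Among the 32 member peaks 17 were of this kind (53.1%), with scores from 149 to 324. They make up all peaks of egl-5, php-3 and nob-1, 5 of 7 at ceh-13 and 4 of 7 at lin-39. Without them 15 peaks at 5 genes would be left. Scores of the other 15 ran from 228 to 2221.

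The replicates were compared at the sites they share. A summit within 100 bp was found in both replicate lists for 31 of 32 peaks (96.9%, 95% exact Clopper-Pearson interval 83.8 to 99.9%), against 96.6% of the whole list, which was derived from those replicates and so gives no independent measure of agreement. Replicate 1 had the higher score at 25 of the 31 and replicate 2 at 6, and replicate 2 was the higher at 13.6% of all matched peaks. The difference had a median of 0.42 on the log2 scale with an SD of 0.57, beside 0.35 and 0.41 over all matched peaks. As a description across peaks that share the same libraries, Spearman's rho of the replicate scores was 0.77 over the 31 and 0.92 over all matched peaks. In 14 of the 31 the ratio lay more than 1 SD of the list from its median. That is a larger share than the 22.4% of all matched peaks and the 35.8% of those in the weaker 50%. The difference was not tested.

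**Figure D3:**
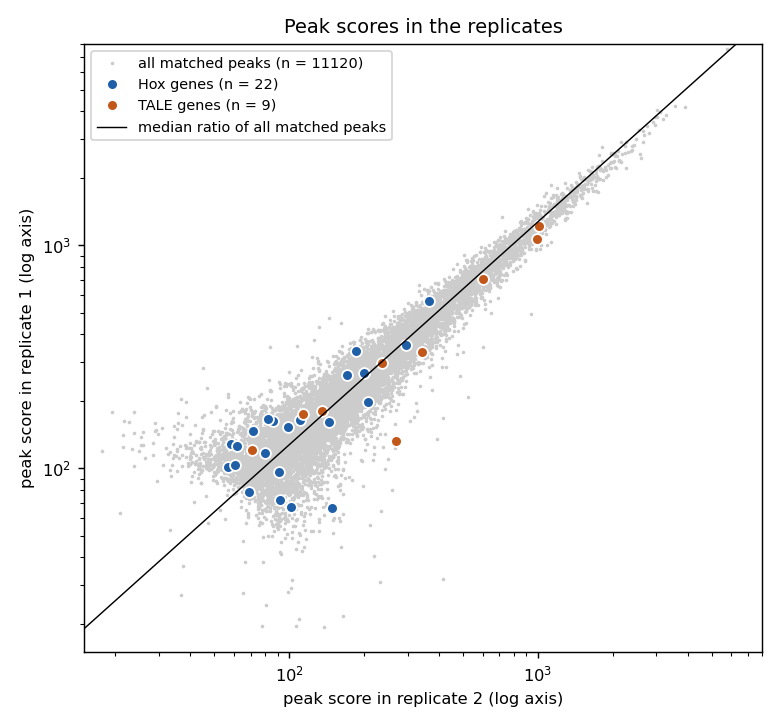
Peak scores in replicate 1 against replicate 2 (both log axes) for all 11120 matched IDR-thresholded peaks (grey), 22 at Hox genes (blue) and 9 at TALE genes (orange), with the median ratio as a line. At 25 of the 31 Hox and TALE points replicate 1 has the higher score, and the egl-5 site, at 66.1 against 149, lies below the line.

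Short sequence words were counted in windows of 201 bp centred on the summits. GAGAGA, on either strand, was present in 40.7% of the windows of the whole list and in 11.5% of windows centred 300 bp to either side. Among the member windows 17 of 32 held it (53.1%). It was present at 5 of the 7 lin-39 peaks, though not at either annotated start, and in 4 of the 7 ceh-13 windows. GAGACG was present in 4 of 32 member windows (12.5%) and 21.2% of all, and GACGCA in 5 (15.6%) and 15.6% of all. Both words occurred together in the window 789 bp upstream of ceh-20 and in the weak unc-62 window 12185 bp inside the gene.

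Words bound by the members' own products were counted in the same windows. The Pbx-Hox composite TGATNNAT, where N is any base, was found in 10 of 32 member windows (31.3%), against 14.5% of all summit windows and 15.7% of flanking windows. At ceh-13, 5 of the 7 windows held it, among them the strongest. The Meis word TGACAG was found in 3 of 32 (9.38%), 1 each at ceh-13, lin-39 and unc-62, against 8.49% of all. These are matches of letters, not shown to be sites, and the shares were not tested.

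Other genes that act with the Hox genes were described by the same windows. All 8 trithorax-type and H3K27 demethylase genes, which help to keep Hox genes active, had a peak. The highest scores there were at set-16, an MLL-type methyltransferase (3747, replicates 2001 and 1746), lin-59, an Ash1-type gene (2384), ash-2 (1705) and lin-49 (1673). The 5′ end nearest to the set-16 peak is that of drr-2. Of 8 Polycomb-type genes, which act in Hox repression, 5 had one. The strongest were at spat-3 (2630, replicates 1407 and 1233) and sor-1 (2510, replicates 1338 and 1183), then sor-3 (989.8, matched in replicate 2 only) and mes-6, the worm ESC homologue (298).

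Of 10 transcription factors and Wnt effectors upstream of Hox genes, 8 had a peak. sys-1, a beta-catenin, had the highest score (3100, replicates 1710 and 1401), at a peak nearer to the histone gene his-68. Next were egl-27, a chromatin regulator related to MTA proteins (1909, one of 25 peaks in its window), lin-22, a Hairy-type repressor (612, nearest to the 5′ end of vrp-1), and sem-4, a Spalt-type zinc finger (528). pal-1 and vab-7, the Caudal and Even-skipped homologues, had none. Of 10 genes regulated by Hox proteins, 5 had a peak. The adjacent GATA factor genes egl-18 and elt-6 shared the strongest (768, replicates 455 and 315), nearest to the 5′ end of egl-18. The peaks in the windows of mig-13 (389) and hlh-8, the Twist homologue (368), lie nearest to ztf-16 and K07E3.1. Of 5 other TALE and HOX-like genes, 2 had one, irx-1 (604) and ceh-12 (150.2, nearest to obr-4), while psa-3, pal-1 and vab-7 had none. These counts stand beside the 56.2% of all protein-coding genes, and some genes are in more than 1 list.

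**Figure D4:**
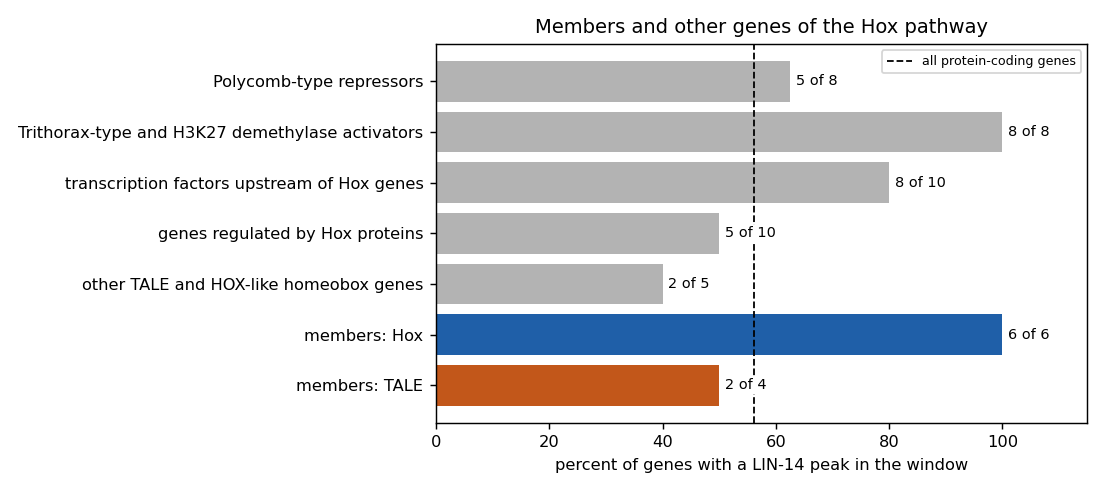
Percent of genes in each list with at least 1 LIN-14 peak from 10 kb upstream to 1 kb downstream, with the counts beside the bars and the share of all protein-coding genes (56.2%) dashed. The trithorax-type list and the Hox genes are at 100%, and the other TALE and HOX-like genes are the lowest with 2 of 5. Among the Hox genes, php-3 counts only through peaks shared with nob-1.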

How the data were processed

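LIN-14 ChIP-seq was measured in 2 biological replicates of 1 group. The authors deposited 4 peak lists on ce11: 1 for each replicate and 1 for their pooled alignments, each called against a control, and the IDR-thresholded list derived from those 3, per the labels and the deposited README texts. For the aligner, the peak caller and the threshold, names and versions were not given in the sources used here. The deposited score of each peak (column 7) was used as given, and the deposited −log10 q-value for peaks below the threshold. Gene models were from Ensembl release 115 (WBcel235) and sequence from the RefSeq copy of that assembly, in whose 6 chromosomes all peaks fit.

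Python 3.11.15 with pandas 2.3.3, numpy 2.4.6, scipy 1.17.1 and matplotlib 3.10.9 was used, and counting was tested on simulated data. Positions count from 1. No condition was compared and no hypothesis test was run. Intervals cover counting of peaks only, treat the peaks as independent and do not measure variation between replicates. All 10 members were described, with up to 4 genes of each pathway list by highest score. The second ceh-20 sequence and the non-coding neighbours, and list genes named as having no peak, were picked with their values in view. Of the sequence words, the first 3 counted were chosen from those concentrated at the summits of these data, the Pbx-Hox and Meis words from general knowledge. Members, gene lists and alternatives were chosen with earlier results of these data known. The alternatives were shorter windows, nearest-gene assignment, merging, a stricter score, other matching distances, other promoter windows and single replicates.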

Additional observations from a re-analysis of the deposited data

How the results depend on the processing

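With the stronger 50% of the list, 12 peaks at 5 genes were left (45.3% of protein-coding genes then had one), and 5 genes exceeded the median density. Without the peaks of fixed width, an alternative chosen after seeing the data, 15 peaks at 5 genes were left, against 50.4% of protein-coding genes. With windows from 5 kb or 2 kb upstream, 26 and 23 peaks at 8 and 7 genes were counted, against 45.1% and 35.5% of protein-coding genes. With the nearest gene only, there were 29 peaks at 7 genes (27.8% of protein-coding genes). With overlapping peaks merged, there were 31 peaks, and 8 genes exceeded the median density, as did 50% of protein-coding genes. Single replicates gave 27 to 31 peaks at 7 to 8 genes (57.3% to 58.7%). The share of peaks matched in both replicates was 81.3% within 50 bp and 100% within 250 bp, by any overlap, or in the stronger 50%. In promoter windows from 500 bp upstream to 100 bp downstream, 2 genes had a peak, close to the 17.7% of protein-coding genes, so the excess seen in the main promoter window was absent there. From 2000 bp upstream to 500 bp downstream it was 7 genes, against 29.7%. Among the pathway lists, trithorax-type genes kept a peak in at least 6 of 8 cases in every setting tried. The counts of the other 4 lists moved by over 1.5 times in at least 1 setting. These are raw counts, and the share of all protein-coding genes with a peak also fell in several settings. It was 56.2% in the main setting, 35.5% with 2 kb upstream and 45.3% with the stronger 50%. No paired analysis was possible because the series has 1 group. The files hold no read counts, so what depth could show is unknown. Scores near the threshold limit what can be said of egl-5, php-3 and nob-1. They also limit the peak density at ceh-13 and lin-39, where 2 and 3 of the 7 peaks were above the median score.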

Other observations

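Below the threshold the member windows held 43 further peaks of the pooled list, with scores of 31.3 to 146.7. Of these, 23 had a matching summit in both replicates (53.5%), against 48.7% of all 13176 such peaks. The highest was in an intron of lin-39, 3416 bp inside the gene, and unc-62 had the most, with 13.

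The Hox cluster on chromosome III is interrupted by other genes, and peaks along it differed in number and strength. From lin-39 to ceh-13 (29.4 kb with no other protein-coding gene) there were 13 peaks, or 0.442 per kb, with a median score of 188. Between ceh-13 and mab-5, in 218.8 kb with 38 protein-coding genes, there were 32 peaks, or 0.146 per kb, with a median score of 594 and a highest of 3095. From mab-5 to egl-5 (40.3 kb) there were 6 peaks, or 0.149 per kb, with a median of 263. Chromosome III as a whole had 0.118 peaks per kb. With the Hox genes themselves left out, the sequence between lin-39 and ceh-13 had 8 peaks, or 0.420 per kb, with a median of 339, and that between mab-5 and egl-5 had 3, or 0.0970 per kb, with a median of 311. The order of the medians of these 2 intervals therefore depends on whether the genes are included, and the order of their densities does not.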
